A study of Mus musculus with 4 samples.

Results

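The stem cell transcription factor heptad is the set of 7 genes Tal1, Lyl1, Lmo2, Gata2, Runx1, Erg and Fli1. The members were taken by name, 7 of the 21887 protein-coding genes of the RefSeq table, and every ATAC-seq summit in the gene body or within 50 kb of either end was collected from each of 4 lists. ATAC-seq maps accessible chromatin from insertions of the Tn5 transposase, and a summit is the 1-bp point that the peak caller gives as the top of a peak. The cells were haematopoietic stem cells (HSCs) of wild type C57BL/6 male mice, 8 weeks old, from bone marrow. Both groups were sorted as LSK cells (without lineage markers, with Sca-1 and Kit) that carried Slam1 and lacked CD34, Flt3 and CD48. They differed in surface CD93, with 2 CD93-positive HSC libraries and 2 CD93-negative ones. Femora and tibiae were pooled, and since no label states that replicates are different mice, the spread within a group may be purely technical.

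The heptad factors occupy many regulatory elements together in blood stem and progenitor cells, including elements of their own genes, and so form a densely connected circuit. TAL1 and LYL1 are basic helix-loop-helix proteins that bind E-boxes as dimers with E proteins. LMO2 binds no DNA itself and bridges these dimers to GATA2, and it also contacts LDB1. RUNX1 binds with its partner CBFB, and ERG and FLI1 are factors of the ETS family. Loss of Tal1, Lmo2, Gata2 or Runx1 in mouse embryos prevents or severely impairs the formation of definitive blood.

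Reads were not analysed and depth is unknown, so the length of a list is the sole measure of yield. The CD93-positive lists held 21 and 711 summits in replicates 1 and 2, and the CD93-negative lists held 7989 and 2755. Whether a shorter list came from fewer reads or from fewer accessible sites cannot be told apart. The deposited score is a −log10 value that the peak caller sets against each library's own background, and it ranks summits within a list only, and scores of different libraries share no common scale. The lowest scores were 3.03 to 3.09. Of the 7 blood stem cell markers reported (Kit, Ly6a, Slamf1, Procr, Mecom, Hlf and Fgd5), none had a summit within 1000 bp of either gene end in any library. Over all protein-coding genes that share was 0.0183% and 3.22% in CD93-positive replicates 1 and 2, against 32.2% and 12.9% in CD93-negative replicates 1 and 2. In the body or within 50 kb, 0 and 1 of the 7 had a summit in the CD93-positive libraries, against 4 and 1 in the CD93-negative ones. The shares of all genes were 0.11% and 8.91%, against 59.5% and 32.8%. Markers of other cells were counted by the same rules. Within 1000 bp of a gene end, Cd3d (T lineage) and S100a8 (myeloid) had a summit in CD93-negative replicate 1. S100a8 also had one in CD93-negative replicate 2. The B-lineage, erythroid and endothelial markers had none at a gene end. In the body or within 50 kb, 4 and 4 of 6 B-lineage markers had a summit in CD93-negative replicates 1 and 2. The counts were 5 and 0 of 5 T-lineage and 3 and 2 of 6 myeloid markers. For erythroid and endothelial markers they were 3 and 1 of 5 and 1 and 0 of 5. Both CD93-positive libraries had 0 by either rule.

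Accessible sites at the heptad were listed in a single library. CD93-positive replicates 1 and 2 had 0 and 0 of the 7 genes with a summit in the body or within 50 kb, against 5 and 0 in CD93-negative replicates 1 and 2. The number of summits was 0 and 0 in the CD93-positive lists, against 10 and 0 in the CD93-negative lists. All 10 thus came from CD93-negative replicate 1. The count was 0 in CD93-negative replicate 2, where 32.8% of all protein-coding genes had such a summit. It was also 0 in CD93-positive replicates 1 and 2, where 0.11% and 8.91% of all genes had one. The genes with a summit were Tal1 (3 summits), Lyl1 (4), Lmo2 (1), Runx1 (1) and Erg (1), while Gata2 and Fli1 had none in any list.

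**Figure D1:**
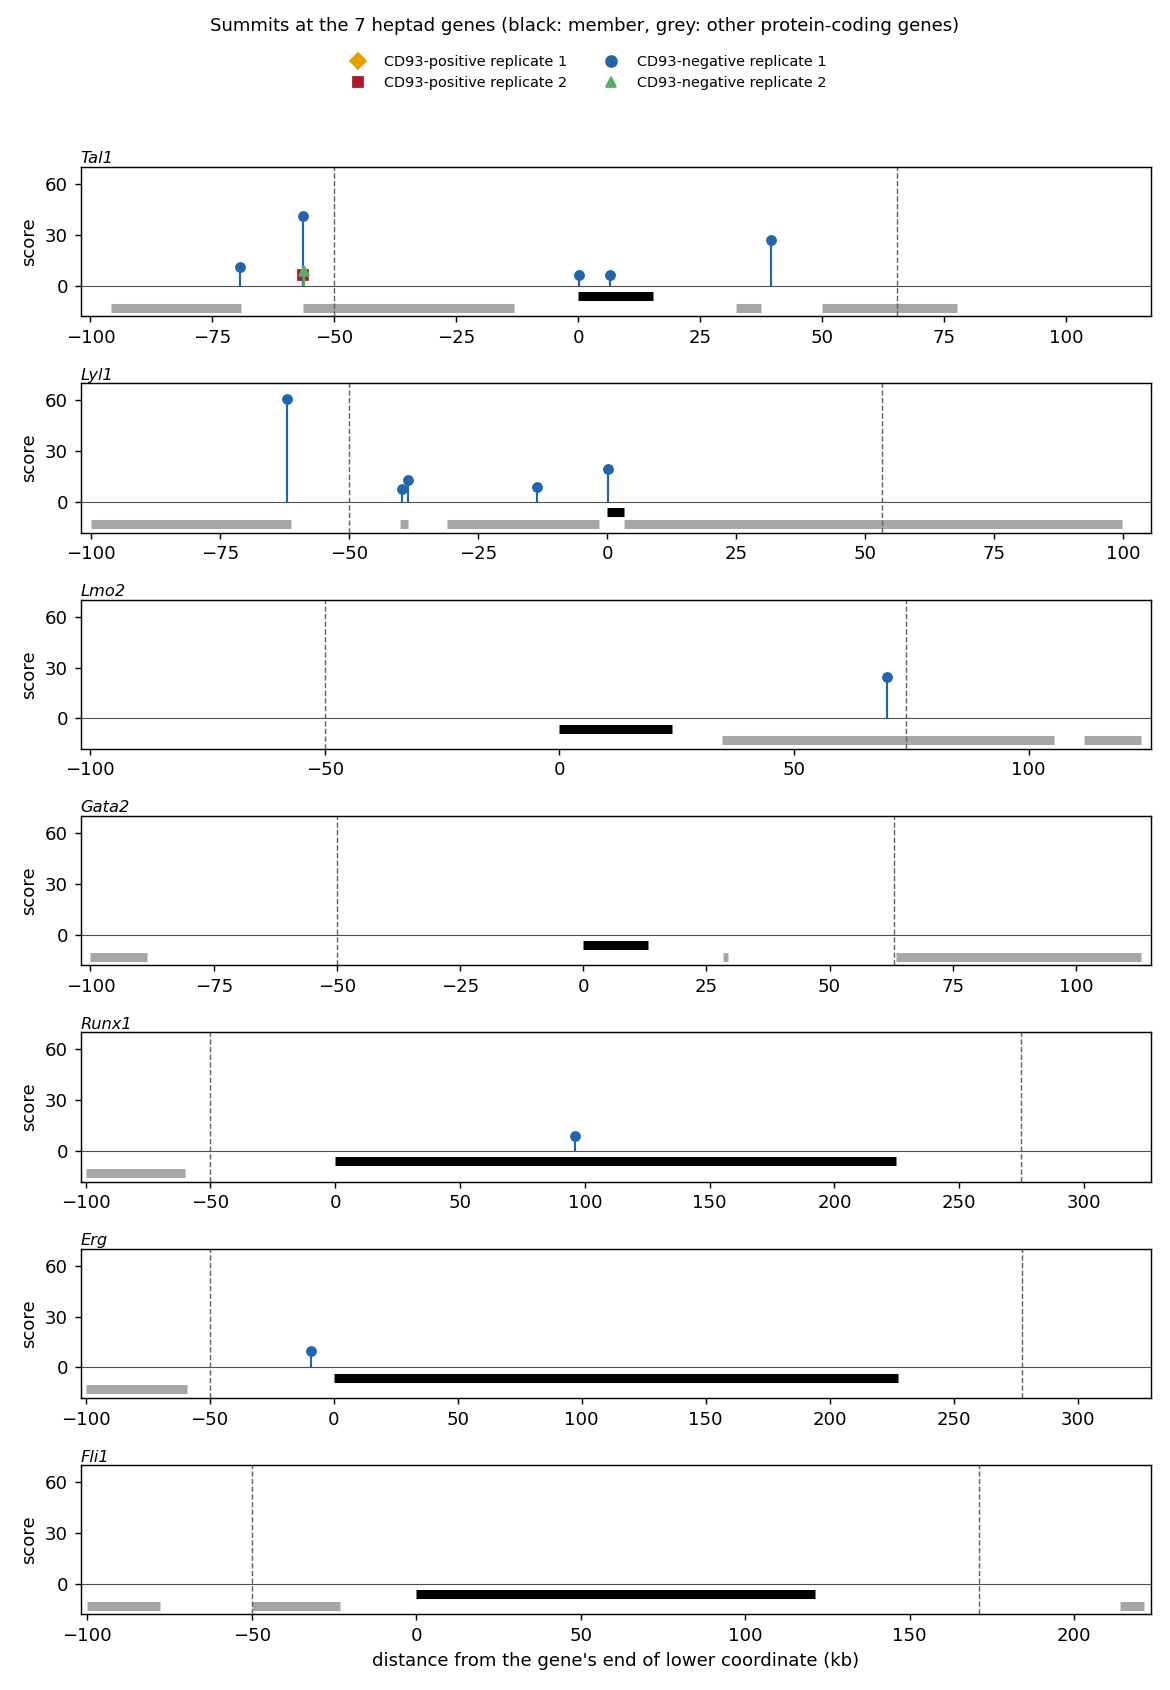
Summits within 100 kb of each heptad gene, as distance in kb from the end of lower coordinate (x axis) against the score on the peak caller's −log10 scale (y axis), with 1 symbol and colour per library. Dashed lines mark the 50 kb limit. The 10 summits inside it all belong to CD93-negative replicate 1, and summits of CD93-positive replicate 2 and CD93-negative replicate 2 appear once, beside Stil near Tal1.

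These counts were set against all genes. Of all protein-coding genes, 0.11% and 8.91% had a summit in the body or within 50 kb in CD93-positive replicates 1 and 2, against 59.5% and 32.8% in CD93-negative replicates 1 and 2. In CD93-negative replicate 1, the heptad windows held a mean of 1.43 and a median of 1 summit, against 1.25 and 1 over all gene windows. In CD93-negative replicate 2 they held 0, against a mean of 0.447 and a median of 0 over all gene windows. The mean was 0 ± 0 members in CD93-positive and 2.5 ± 3.54 in CD93-negative libraries (SD, n = 2 each), a difference of -2.5 with p = 1 in an exact permutation test, two-sided. Such a test of 2 libraries against 2 cannot go below 0.333. With 0 in every library but CD93-negative replicate 1, each relabelling gives a difference of the same size. The p-value was therefore fixed by these ties and carries no information. The difference rested on CD93-negative replicate 1 alone and was 0 without it.

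The share of each list that lay at the heptad was also set against what its length could show. It was 0.125% (95% exact Clopper-Pearson interval 0.060 to 0.230) in CD93-negative replicate 1. For a count of 0 the limit was taken as 3 counts over the length of the list. In the CD93-positive group this allowed a share of up to 14.3% in replicate 1 and 0.422% in replicate 2, and in CD93-negative replicate 2 it allowed 0.109%. The upper Clopper-Pearson bounds of the CD93-positive lists were 16.1% and 0.517%. These limits and intervals take each summit as an independent count and hold no other error. A share like that of CD93-negative replicate 1 was therefore not detectable in either CD93-positive list. In CD93-negative replicate 2 the limit from 3 counts lay below that share, and the upper Clopper-Pearson bound of the count of 0 (0.134%) above it, so no difference between the CD93-negative libraries was detectable either.

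None of the 10 summits was strong within its list. Their scores ran between 6.15 and 26.9 with a median of 9.14, against 20.6 for the whole list of CD93-negative replicate 1, and 8 of the 10 lay below that list median. The best placed stood at rank 2989 and the lowest at rank 7558 of 7989. As many top summits of this list as CD93-negative replicate 2 holds, 2755, would include 0 of the 10, and so would the top 711. Of the 4575 summits of CD93-negative replicate 1 with scores in the same range, 1.31% had a summit within 250 bp in CD93-positive replicate 2 and 17.4% in CD93-negative replicate 2. For the heptad this was 0 of 10 in both. At those shares 10 sites would give 0.131 and 1.74 shared sites, so a lower share was not detectable with 10 sites.

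**Figure D2:**
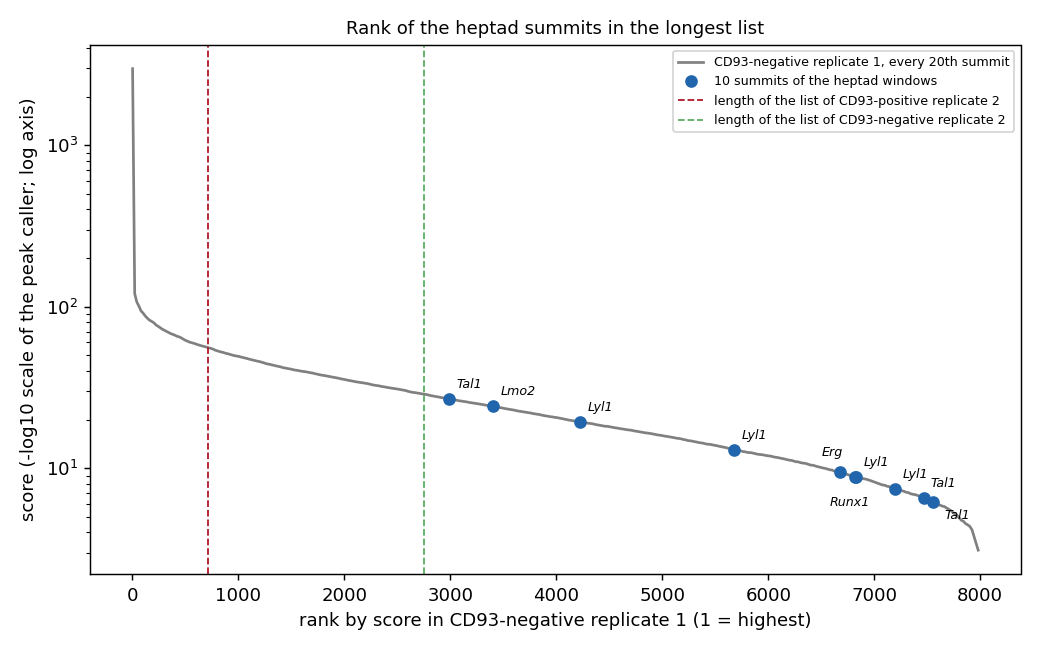
Score on a log axis against rank for CD93-negative replicate 1 (grey line, every 20th summit), with the 10 heptad summits as points named by gene. Dashed lines mark the lengths of the lists of CD93-positive replicate 2 (711) and CD93-negative replicate 2 (2755), and all 10 points lie to the right of both.

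Sites at the members' own ends were fewer than sites around them. A summit within 1000 bp of either gene end was listed for 0 and 0 of the 7 members in CD93-positive replicates 1 and 2, against 2 and 0 in CD93-negative replicates 1 and 2. Over all protein-coding genes this share was 0.0183% and 3.22% in the CD93-positive libraries, against 32.2% and 12.9% in the CD93-negative ones. The mean was 0 ± 0 in CD93-positive and 1 ± 1.41 in CD93-negative libraries (SD, n = 2 each, exact permutation p = 1, again fixed by the ties at 0). The 2 genes were Tal1 and Lyl1, the paralogous helix-loop-helix members. Of the other 8 summits, 2 lay inside Tal1 and Runx1 and 6 outside the member. At 5 of these 6 another protein-coding gene was closer.

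Tal1 (gene ID 21349, chromosome 4, 115056426 to 115071755, plus strand) had 3 summits, a gene-end site, an intragenic site and a distal site. The first summit, at 115056666, lay 240 bp downstream of the outer annotated start and scored 6.57, so that 93.5% of its list scored higher. The intragenic one, at 115063003, lay inside the gene, 6577 bp downstream of that start, with a score of 6.15. Both were among the weakest summits of CD93-negative replicate 1, and no other gene was closer to either. The distal one, at 115095892, scored 26.9, the highest of the 10. It lay 39466 bp downstream of the outer start and 24137 bp beyond the far end of Tal1, and 1998 bp from Pdzk1ip1, which encodes a small membrane protein and was the closer gene. An enhancer active in erythroid cells is known in mouse downstream of Pdzk1ip1. Whether the summit marks it was not tested. No summit was listed between the intragenic and distal sites, a stretch that includes the known Tal1 stem cell enhancer between the 2 genes.

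The nearest summits to Tal1 in the other long lists lay at its neighbour Stil, a centriole duplication factor gene. The distance was 56326 bp in CD93-positive replicate 2, with the summit 8 bp outside Stil (score 6.25). CD93-positive replicate 1 had none nearer than 4317395 bp. In CD93-negative replicate 2 it was 56251 bp, with the summit inside Stil 67 bp from its end (score 8.44), and CD93-negative replicate 1 had a summit 56428 bp away, 110 bp outside Stil (score 41.0). Of the 4 libraries, 3 therefore listed the far end of Stil, just past the 50 kb limit, and a single library listed Tal1. Just inside the limit, at 45931 bp, was the summit near Lmo2 described below.

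Lyl1 (gene ID 17095, chromosome 8, 84701423 to 84704716, plus strand) is the most compact member, and 4 other protein-coding genes reach into its window. Its own summit, at 84701675, scored 19.3 in CD93-negative replicate 1 and lay inside the gene, 218 bp downstream of the annotated start. This was the highest score at a member's own end. The other 3 summits lay nearer to other genes. A pair at 84661739 and 84662881 (scores 7.46 and 13.04) stood at the ends of Ier2, an immediate-early response gene, 408 bp inside it and 29 bp outside it. One at 84687831 (score 8.83) lay 31 bp inside the end of Nacc1, a BTB-domain transcriptional regulator, and also within Trmt1, a tRNA methyltransferase gene. In the other long lists the nearest summits were at Calr, the gene of an endoplasmic reticulum chaperone. They were 142312 bp off in CD93-positive replicate 2 (score 10.1), against 142302 bp in CD93-negative replicate 2 (score 14.1). In CD93-positive replicate 1 the nearest lay 9332573 bp away.

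Lmo2 (gene ID 16909, chromosome 2, 103957903 to 103981878) had no summit of its own. The single summit of its window, at 104027809 with a score of 24.2, lay 45931 bp from the gene. It stood 10 bp inside the end of Fbxo3, an F-box gene of ubiquitin ligases, and within 1000 bp of the end of the overlapping 4931422A03Rik. In CD93-positive replicate 1 the nearest summit to Lmo2 was 5290768 bp off, and in CD93-positive replicate 2 it was 884285 bp off, at Apip and Pdhx. In CD93-negative replicate 2 it was 196659 bp off, 1701 bp from the nearest end of Caprin1.

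Runx1 (gene ID 12394, chromosome 16, 92601466 to 92826074, minus strand) had 1 summit, at its inner start. Runx1 is known to be transcribed from a distal and a proximal promoter. The summit, at 92697325 with a score of 8.84 in CD93-negative replicate 1, lay 4 bp downstream of the annotated start at 92697329. That start lies inside the gene, 128745 bp from the distal one at 92826074, so the summit did not count as a gene-end site. No summit was listed at the distal start, nor anywhere else in the gene or its flanks, and no other protein-coding gene reaches into the window. The nearest summits elsewhere were 40219159 and 885613 bp off in CD93-positive replicates 1 and 2 (the second at Dop1b), against 777815 bp in CD93-negative replicate 2 (at Setd4).

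Erg (gene ID 13876, chromosome 16, 95359169 to 95586600, minus strand) had 1 summit, at 95349917 with a score of 9.44 in CD93-negative replicate 1. It lay 9252 bp beyond the 3′ end of the gene, and the next protein-coding gene, Kcnj15, was 49657 bp away. It was the sole summit outside a member that was nearer to the member than to any other protein-coding gene. None of the 3 annotated starts of Erg had a summit within 500 bp, and none was listed inside the 227432 bp of the gene. In CD93-negative replicate 2 the nearest summit, 115447 bp away with a score of 6.02, was at the end of Ets2, another ETS factor gene. In CD93-positive replicates 1 and 2 the nearest lay 42976862 and 1045726 bp away.

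Gata2 and Fli1 had no summit in the window in any list. Gata2 (gene ID 14461, chromosome 6, 88193891 to 88207032, plus strand) encodes the zinc finger factor whose dose is limiting in HSCs. Its nearest summits lay 1524494 bp away in CD93-positive replicate 2 (at Mxd1), against 109363 bp in CD93-negative replicate 1 (at Rpn1) and 306083 bp in CD93-negative replicate 2 (at Copg1). CD93-positive replicate 1 listed no summit on that chromosome. The stretch free of summits takes in the intronic enhancer and the far upstream enhancer of Gata2 known in mouse. Fli1 (gene ID 14247, chromosome 9, 32422204 to 32543432), the ETS paralogue of Erg, was the member farthest from a summit in both CD93-negative libraries. Its distances were 2762023 and 2762024 bp in CD93-positive replicates 1 and 2, against 152574 and 1141780 bp in CD93-negative replicates 1 and 2. The nearest of these, with a score of 26.2 in CD93-negative replicate 1, lay inside the neighbouring Ets1, 59765 bp from the nearest end of that gene.

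**Figure D3:**
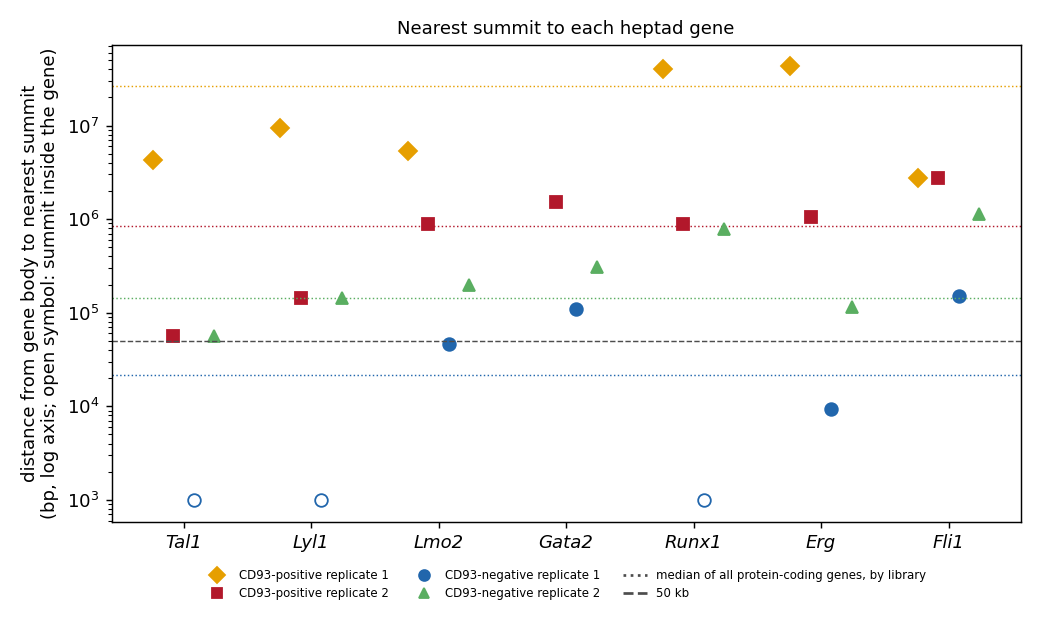
Distance from each heptad gene body to the nearest summit of each library, in bp on a log axis, with open symbols at 1000 bp for summits inside the gene. Dotted lines give the median over all protein-coding genes in each library, and the dashed line is 50 kb. Only CD93-negative replicate 1 has symbols under the dashed line, for Tal1, Lyl1, Lmo2, Runx1 and Erg, and Gata2 has no value in CD93-positive replicate 1.

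Against all protein-coding genes, the distances fell on either side of the median. In CD93-positive replicate 2 the median gene lay 846404 bp from a summit, and Tal1 and Lyl1 were nearer while the other 5 members were farther. In CD93-negative replicate 1 the median was 21479 bp, and Tal1, Lyl1, Runx1 and Erg were nearer. In CD93-negative replicate 2 it was 142745 bp, with Tal1, Lyl1 and Erg nearer, Lyl1 by under 500 bp. Tal1 and Lyl1 were thus on the near side in all 3 longer lists. In CD93-positive replicate 1, with 21 summits, Tal1, Lyl1, Lmo2 and Fli1 were nearer than the median gene. Runx1 and Erg were farther there, and Gata2 had no value. The members' windows also differed in their other genes, and the part of this in the distances was not tested. The windows of Tal1 and Lyl1 took in 3 and 4 other protein-coding genes, while those of Lmo2, Gata2, Runx1, Erg and Fli1 took in 2, 1, 0, 0 and 1. In CD93-negative replicate 1, 1 of the 3 genes around Tal1, 2 of the 4 around Lyl1 and 2 of the 2 around Lmo2 had a summit at an end. Over all protein-coding genes 32.2% had one in that library. Both genes around Lmo2 were counted for the same summit. The gene around Tal1 was Stil, whose listed end lay past the 50 kb limit and was also listed in CD93-positive replicate 2 and CD93-negative replicate 2.

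The 10 sites were spread over kinds of position. Counting any protein-coding gene, 6 stood within 1000 bp of a gene end and 4 did not, namely the intragenic and distal sites of Tal1, the inner start of Runx1 and the site beyond Erg. That is 40% away from gene ends (exact 95% interval 12.2 to 73.8). In the whole list it was 24.4%, and 28.5% among summits of the same score range. Both lay within the interval for the 10 sites, so a difference was not detectable with 10 sites.

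Annotated starts were taken from the RefSeq promoter sequences of build GRCm38.p6, the assembly behind mm10. Those matched 5 of the 7 members, with 10 starts in all. Lmo2 and Fli1 had no entry. A summit within 500 bp was listed at 0 and 0 of the 10 starts in CD93-positive replicates 1 and 2, against 3 and 0 in CD93-negative replicates 1 and 2. Over all 32851 starts of the table the shares were 0.00913% and 2.32% in the CD93-positive libraries, against 22.7% and 9.1% in the CD93-negative ones. The 3 starts were the outer start of Tal1, the start of Lyl1 and the inner start of Runx1.

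Promoter sequence is printed for these 3 starts, each with a summit within 500 bp, and for the distal start of Runx1 and the outer start of Gata2, which had none. Each run holds 250 bases before the start and 30 bases from it onward, 5′ to 3′ on the gene's own strand. The Runx1 summit lies within its run, while those of Tal1 and Lyl1 lie 211 and 189 bp beyond the 3′ ends of theirs. Capitals mark matches, on either strand, of GATAA (bound by GATA factors), CANNTG (the E-box), TGTGGT (a RUNX site) and GGAA (the ETS core).
Runx1 inner start with a summit, chr16:92697300-92697579, minus strand: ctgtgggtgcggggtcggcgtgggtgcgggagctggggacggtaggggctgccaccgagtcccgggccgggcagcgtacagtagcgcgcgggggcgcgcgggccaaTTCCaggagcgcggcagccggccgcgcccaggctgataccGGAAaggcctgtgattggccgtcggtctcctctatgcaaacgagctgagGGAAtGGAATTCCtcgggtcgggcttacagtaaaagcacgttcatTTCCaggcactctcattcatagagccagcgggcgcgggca
Runx1 distal start without a summit, chr16:92826045-92826324, minus strand: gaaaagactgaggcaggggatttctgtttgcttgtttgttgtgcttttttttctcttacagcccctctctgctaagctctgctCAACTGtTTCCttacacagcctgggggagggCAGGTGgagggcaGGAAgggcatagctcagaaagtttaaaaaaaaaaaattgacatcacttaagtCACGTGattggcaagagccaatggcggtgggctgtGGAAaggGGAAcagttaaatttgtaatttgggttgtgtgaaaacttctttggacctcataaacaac
Lyl1 start with a summit, chr8:84701207-84701486, plus strand: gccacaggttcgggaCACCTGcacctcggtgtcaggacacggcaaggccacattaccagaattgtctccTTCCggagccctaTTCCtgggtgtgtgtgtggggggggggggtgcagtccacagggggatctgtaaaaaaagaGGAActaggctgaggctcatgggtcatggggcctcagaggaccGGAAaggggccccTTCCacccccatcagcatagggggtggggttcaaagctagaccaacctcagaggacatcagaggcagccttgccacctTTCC
Tal1 outer start with a summit, chr4:115056176-115056455, plus strand: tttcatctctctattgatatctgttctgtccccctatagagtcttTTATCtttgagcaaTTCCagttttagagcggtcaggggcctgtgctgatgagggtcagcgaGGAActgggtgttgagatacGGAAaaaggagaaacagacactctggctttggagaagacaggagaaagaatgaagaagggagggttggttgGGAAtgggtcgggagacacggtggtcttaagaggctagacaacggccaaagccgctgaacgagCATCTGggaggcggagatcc
Gata2 outer start without a summit, chr6:88193641-88193920, plus strand: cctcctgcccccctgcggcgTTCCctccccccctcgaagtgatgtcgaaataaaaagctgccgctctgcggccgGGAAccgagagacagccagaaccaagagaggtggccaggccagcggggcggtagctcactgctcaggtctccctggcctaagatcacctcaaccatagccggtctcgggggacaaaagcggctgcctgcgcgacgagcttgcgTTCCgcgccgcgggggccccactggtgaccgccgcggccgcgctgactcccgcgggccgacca

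The promoters of Runx1 differed most plainly in base composition. The inner one, with the summit 4 bp past its start, was 67.1% G and C with 30 CpG dinucleotides, and the distal one was 44.6% G and C with 2. No E-box lay in the inner run, and 3 lay in the distal one. The Lyl1 run had 1 E-box, 6 ETS cores and 1 match of the longer ETS sequence CCGGAAG, which overlaps a core. The outer Tal1 run had 1 GATA match, 1 E-box and 4 cores, and the outer Gata2 run 3 cores.

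Most of these letters are common in promoters. Over all 32851 runs of the same length, 95.1% held GGAA, 70.1% CANNTG, 24.4% GATAA, 15.6% TGTGGT and 8.45% CCGGAAG. Of the 10 heptad starts, 10 held GGAA, 5 held CANNTG, 2 held GATAA, 1 held CCGGAAG and 0 held TGTGGT. GC boxes (GGGCGG) were in 4 of the 10 and CCAAT boxes in 5, against 34.7% and 36.1% of all runs. These are matches of letters in a short window and not sites of binding.

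Across the genome, starts of higher CpG ratio more often had a summit. CpG ratio here means CpG dinucleotides observed over those expected from the base content of the 280 bases. With all starts ranked by this ratio and cut into 5 classes of 20%, the share with a summit in CD93-negative replicate 1 was 0.410%, 0.867%, 6.34%, 40.4% and 65.3% from the lowest class to the highest. In CD93-positive replicate 2 it was 3.24% and 8.13% in the last 2 classes, against 15.2% and 28.4% in CD93-negative replicate 2. Runx1's inner start had a ratio of 0.979, in the highest class, and the outer Tal1 start 0.559, in the next. Lyl1, at 0.2002 with 5 CpG, had its summit in a class where 0.867% of starts had one. The Tal1 and Lyl1 summits lay 211 and 189 bp beyond their runs, so these ratios do not cover the bases at the summits. The outer starts of Gata2 (0.879) and Erg (0.983) had none in the class where 65.3% did. Tal1's inner start (0.761) and Gata2's inner start (0.754) had none in the class with 40.4%.

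**Figure D4:**
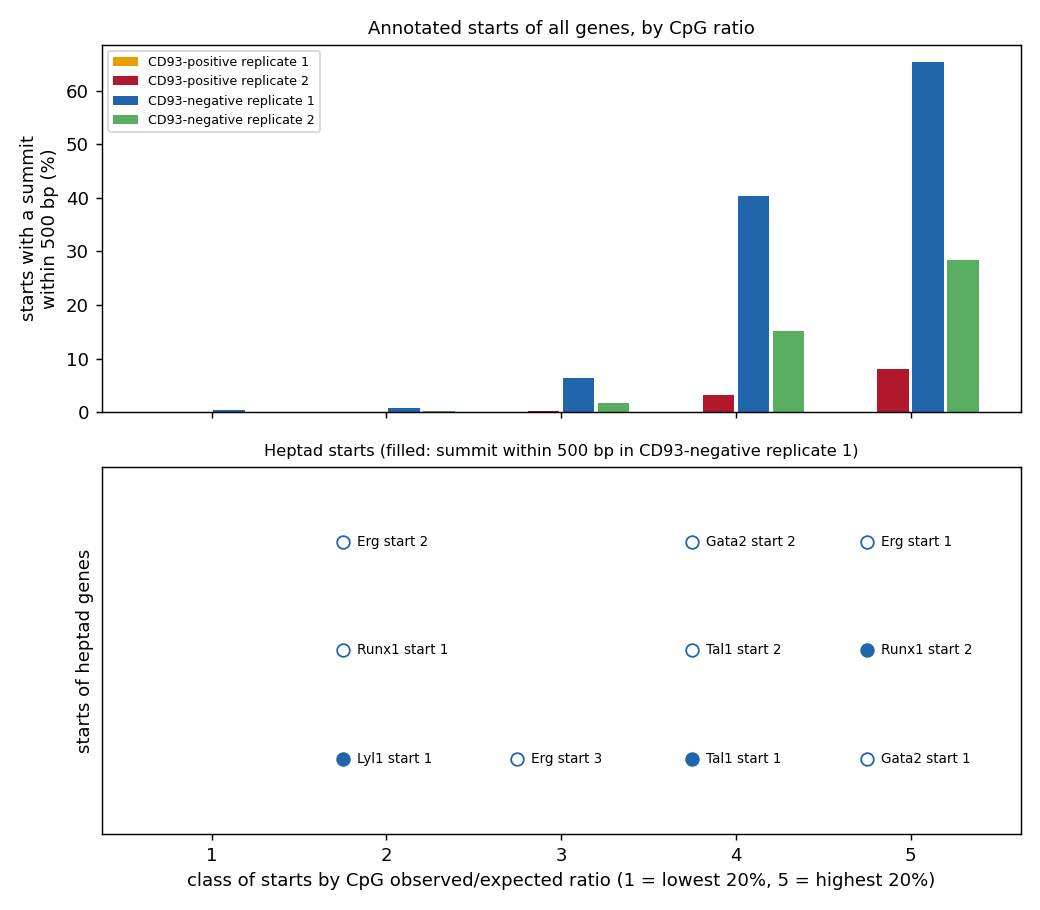
Upper panel, percent of all annotated starts with a summit within 500 bp, by class of CpG observed/expected ratio, with 1 bar per library. Lower panel, the 10 heptad starts placed in their classes, filled where CD93-negative replicate 1 had a summit. Bars reach 65.3% in the highest class, while Lyl1 is filled in class 2 and the outer starts of Gata2 and Erg are open in class 5.

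Genes related to the heptad were complex partners, other transcription factors of blood stem and progenitor cells, and paralogues of members. Their gene-end summits were again mostly in CD93-negative replicate 1. Of 27 related genes, 0 and 1 had one in CD93-positive replicates 1 and 2, against 11 and 4 in CD93-negative replicates 1 and 2. The shares over all protein-coding genes, given above, were 0.0183% and 3.22% in the CD93-positive libraries, against 32.2% and 12.9% in the CD93-negative ones, so the counts were near the background. Of 9 complex partners, 6 had one in CD93-negative replicate 1, where 32.2% of all genes did. They were Ssbp2 (score 52.5) and Ssbp3 (18.8), which stabilise LDB1, the E protein genes Tcf3 (37.6) and Tcf12 (13.8), Cbfb (13.5), the partner of RUNX1, and Zfpm1 (37.5), a cofactor of GATA factors. Zfpm1 was the single related gene listed in a CD93-positive library, with a score of 7.56 in replicate 2, against 37.5 and 10.4 in CD93-negative replicates 1 and 2. Ssbp2 (10.7) and Tcf3 (12.9) were also listed in CD93-negative replicate 2. Ldb1, the partner that LMO2 contacts, Cbfa2t3 and Tcf4 had none in any list.

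For the other 2 lists too, the share over all protein-coding genes in CD93-negative replicate 1 was 32.2%. Among 9 other transcription factor genes of blood stem and progenitor cells, 3 had such a summit in CD93-negative replicate 1 and 0 in the other 3 libraries. These were Hhex (24.5) and the ETS genes Spi1 (11.9) and Etv6 (4.72). Meis1, Mecom, Myb, Gfi1, Gfi1b and Hoxa9 had none. Of 9 paralogues of members, Ets2 (31.1) and Lmo4 (11.0) had one in CD93-negative replicate 1, and Ets2 also in replicate 2 (6.02). Gata1, Gata3, Runx2, Runx3, Ets1, Lmo1 and Tal2 had none. In that library the scores of Ssbp2, Tcf3, Zfpm1, Ets2 and Hhex were all above that of Lyl1. No test of the difference between lists was run.

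The genes most like Tal1 and Lyl1 were sought by their gene-end scores over the 4 libraries, as Euclidean distance on log2(score + 1). Asb3, Erlec1 and Manbal came nearest to Tal1, at a distance of 0.00044, each with a score of 6.58. Ccne2, a G1/S cyclin gene, came nearest to Lyl1 (19.28, distance 0.00048), followed by Akap1 and Samm50, genes of mitochondrial outer membrane proteins (19.24 each). Since 4160 other genes were listed in CD93-negative replicate 1 alone, this likeness rests on 1 score.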

How the data were processed

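ATAC-seq was measured in 2 CD93-positive and 2 CD93-negative HSC libraries, grouped by the sample titles. The authors deposited 1 summit list per library. Per the submitters' processing notes, alignment was with Bowtie2, peak calling with MACS2 and the build mm10; versions, filters and thresholds were not stated. The deposited score was read as the −log10 significance that MACS2 gives a summit (of p or of q, which was not stated). Replicate numbers inside the summit names do not match those of the titles, which were followed.

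Gene positions were those of RefSeq for GRCm38.p6 (21887 protein-coding genes, unplaced scaffolds left out), and starts, strand and promoter sequence from RefSeq promoter entries (32851). Gene windows were the body with 50 kb on either side, gene ends lay within 1000 bp, start sites within 500 bp, and summits of different lists within 250 bp were shared. Positions are 1-based on mm10. Groups were compared by exact permutation tests over libraries, two-sided. The counting was tested on simulated lists. Python 3.11.15, numpy 2.4.6, pandas 2.3.3, scipy 1.17.1 and matplotlib 3.10.9 were used.

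Genes named were the 7 members, the genes nearer to their sites, related genes from lists of partners, other factors and paralogues with a gene-end summit, and the 3 genes most like each member with one. Related genes without a summit were named to complete the lists, and 2 listed genes are not reported here. Members and lists were chosen with earlier results of these data known.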

Additional observations from a re-analysis of the deposited data

How the results depend on the processing

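Values are differences of group means, CD93-positive minus CD93-negative, with reported values of -2.5 members with a window summit, -5 window summits, -0.0626 percentage points of the list and -1 member with a gene-end summit. Windows of 25 or 100 kb, counting only sites nearest to a member, gene ends of 500 or 2500 bp, score minimums of 5 or 10 and merging within 500 bp kept the direction of each difference they applied to. Some values moved by over 1.5 times. A score of at least 10 gave -1.5 members, -2 summits, -0.0307 points and -0.5 gene-end members, sites nearest to a member gave -2.5 summits and -0.0313 points, and windows of 100 kb gave -0.0292 points. With both CD93-negative lists cut to their top 711 summits, the length of the CD93-positive replicate 2 list, all 4 differences were 0, since fewer summits of CD93-negative replicate 1 entered. CD93-positive replicate 1 kept its 21 summits, so its list stayed shorter. With windows of 100 kb, sites common to both CD93-negative libraries numbered 1 in place of 0, and sites listed in a CD93-positive library 1 in place of 0, both the end of Stil near Tal1. Sharing distances of 100, 500 and 1000 bp changed neither count. Leaving out each library in turn gave ranges of -5 to 0 members, -10 to 0 summits, -0.125 to 0 points and -2 to 0 gene-end members, with 0 in each case without CD93-negative replicate 1. A replicate block gave the same differences, -2.5, -5, -0.0626 and -1 (exact sign-flip p = 1 each, which 2 pairs cannot bring below 0.5). Since the replicate 2 pair differed by 0, each sign flip gave the same size and this p-value was fixed. The labels do not say that a number marks a shared mouse or day. Depth is unknown, and the 21 and 711 summits of the CD93-positive lists limit what any comparison here can show.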

Other observations

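Lyl1 was one of few genes with a summit within 500 bp of a CpG-poor start, and the others were looked at after these values were seen. The CpG ratio is that of the run at the start. The Lyl1 summit lay 189 bp beyond its run, and base content there was not measured. Of 12598 starts in the lower 2 classes of CpG ratio with no start of higher ratio within 1000 bp, 67 had a summit within 500 bp in CD93-negative replicate 1 (0.532%), at 59 gene symbols. In order of score in that library the set began with Tuba1c (55.7), Rccd1 (53.3), Noct (39.96), Fancl (39.4), Sec62 (31.999), Gm31619 (26.2), Gm10509 (26.1), Gm46183 (23.5), Lyl1 (19.3), Camp (17.1) and S100a8 (16.9). Genes further down, picked here as examples after their scores were seen, included Trem1 (15.5), Isg20 (12.9), Cd68 (12.2), Epb42 (11.3), S100a9 (10.98), H4c2 (10.8), Itga4 (8.84) and Bank1 (8.78). No list of cell type genes was tested on the set. Of the genes named here, Rccd1 alone had such a summit in a CD93-positive library (3.85 in replicate 2), while Tuba1c (8.85), Rccd1 (8.01), Noct (8.66), Sec62 (10.2) and S100a8 (7.77) also had one in CD93-negative replicate 2. Of the myeloid markers Mpo, Elane, Ly6g, Itgam, Csf1r and S100a8, S100a8 alone had a summit at a gene end, in both CD93-negative libraries. There 32.2% (replicate 1) and 12.9% (replicate 2) of all protein-coding genes had one. The part of myeloid cells in the Lyl1 summit was not tested.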
